A study of Mus musculus with 7 samples.

Results

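Crosslink sites of the reinitiation factor DENR were examined at 2 kinds of ribosomal RNA (rRNA) locus that lie outside the mature 18S rRNA. The first were the stretches that flank the 18S copy on mouse chromosome 17, which by their position are spacers of the precursor (pre-rRNA). The second were the genes of type rRNA elsewhere on the nuclear chromosomes in GENCODE M21 (353 genes). Sites of all 7 deposited lists, on either strand, were taken as members when they fell in the 5′ flank (chromosome 17, 39843013 to 39846352, 3340 nt), in the 3′ flank (39848202 to 39848827, 626 nt) or inside such a gene. All coordinates are of build mm10. RefSeq lists this 18S copy as the pseudogene Rn18s-rs5, and reads from other copies of the same sequence cannot be told apart from its own. Members numbered 513 of 42120 listed sites, 300 in the flanks and 213 in the genes. For these genes the working label of 5S loci did not hold throughout. By sequence, 351 of the 353 genes were nearer to the 5S gene Rn5s and 2 were nearer to the 5.8S gene n-R5-8s1, and the 5.8S pair held 128 of the 213 sites, so that 5S and 5.8S copies are described apart.

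The libraries came from NIH3T3 cells, a mouse fibroblast line, and were made by individual-nucleotide resolution crosslinking and immunoprecipitation (iCLIP), in which UV light (254 nm, 150 mJ/cm2) crosslinks proteins to bound RNA and the end of the cDNA marks the crosslinked nucleotide. Anti-DENR was used on cells transiently transfected with a FLAG-Venus-tagged Denr (DENR overexpressing, n = 3) and on cells without transfection (non-transfected, n = 2), and IgG served as the immunoprecipitation control (IgG control, n = 2). Non-transfected samples were made from more dishes than overexpressing ones. The labels do not say that replicates were separate cultures, so p-values measure only the spread between these libraries. The lists hold 4012, 16137 and 10209 sites in DENR overexpressing, 4324 and 7185 in non-transfected and 19 and 234 in IgG control libraries. Each site has a score, a whole number for its height that is not scaled to library size. Only sites past the caller's threshold are listed, so the depth is unknown.

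Mammalian 18S, 5.8S and 28S rRNA are cut from 1 long transcript made in the nucleolus by RNA polymerase I. The 5′ external transcribed spacer lies ahead of 18S and the first internal transcribed spacer lies between 18S and 5.8S. Both are removed while the subunits mature, the former with the help of the U3 small nucleolar RNA, and are absent from cytoplasmic ribosomes. 5S rRNA is transcribed by RNA polymerase III from separate gene copies and joins the large subunit with the proteins RPL5 and RPL11. 5.8S rRNA is also part of the large subunit, whereas DENR with MCTS1 is known to bind the small one.

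The 5′ flank positions found in most DENR libraries are shown first. They are a small part of the spacer sites, since 164 of 216 spacer positions were listed in 1 library only. Each line gives 10 nt to either side of the listed nucleotide, 5′ to 3′ on the plus strand, with that nucleotide in capitals.
3253 nt upstream of 18S (chr17:39843090-39843110): ctcgttctgcCagcgggcccc
2300 nt upstream (chr17:39844043-39844063): ccgctccgagTtcggggaggg
2287 nt upstream (chr17:39844056-39844076): ggggagggatCacgcggggca
3254 nt upstream (chr17:39843089-39843109): tctcgttctgCcagcgggccc
3156 nt upstream (chr17:39843187-39843207): gcgcgcacttTtctcagtggt
In the annotation these positions lie in an exon of the long non-coding RNA Gm26917 (39843013 to 39846341, plus strand), which spans nearly the whole 5′ flank.

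The spacers were crosslinked in every DENR library and in neither IgG control. DENR overexpressing libraries listed 20, 171 and 62 spacer sites, and non-transfected libraries listed 8 and 39. These were 0.499%, 1.06% and 0.607% of the listed sites in DENR overexpressing and 0.185% and 0.543% in non-transfected libraries (exact Clopper-Pearson 95% intervals of 0.305 to 0.769, 0.907 to 1.23, 0.466 to 0.778, 0.0799 to 0.364 and 0.386 to 0.741%). Intervals cover counting error only, since sites in 1 list are not independent. All 300 spacer sites were on the plus strand, the strand of the pre-rRNA.

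The IgG controls listed no spacer site, but their lists were short. A count of 0 of 19 sites allows a share of up to 15.8% and 0 of 234 a share of up to 1.28%, above the share in each of the 5 DENR libraries. The difference of 0.579 percentage points between DENR (0.579% ± 0.314, SD, n = 5) and IgG lists had the smallest p this design allows (two-sided exact permutation test, 21 splits, p = 0.0952, adjusted p = 0.133 over 7 tests). At this depth, absence from the IgG lists was therefore not distinguishable from a share like that of the DENR lists.

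DENR overexpressing libraries held 0.722% ± 0.298 of their sites in the spacers (SD, n = 3) against 0.364% ± 0.253 in non-transfected libraries (SD, n = 2). The ranges overlapped, and the difference of 0.358 percentage points was not detectable (two-sided exact permutation test, 10 splits, smallest possible p 0.2, p = 0.4, adjusted p = 0.467). DENR overexpressing replicate 2 was the highest library and non-transfected replicate 1 the lowest. Without the former the difference was 0.189, and without the latter 0.179 percentage points. By score, the spacers held 0.0981%, 0.224% and 0.138% of the listed score in DENR overexpressing and 0.0791% and 0.0746% in non-transfected libraries. These shares did not overlap, and their difference was 0.0763 percentage points. With lists of equal length the difference in sites was 0.201 percentage points. Both alternatives were at the lower limit of the test (two-sided exact permutation p = 0.2, not adjusted).

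**Figure D1:**
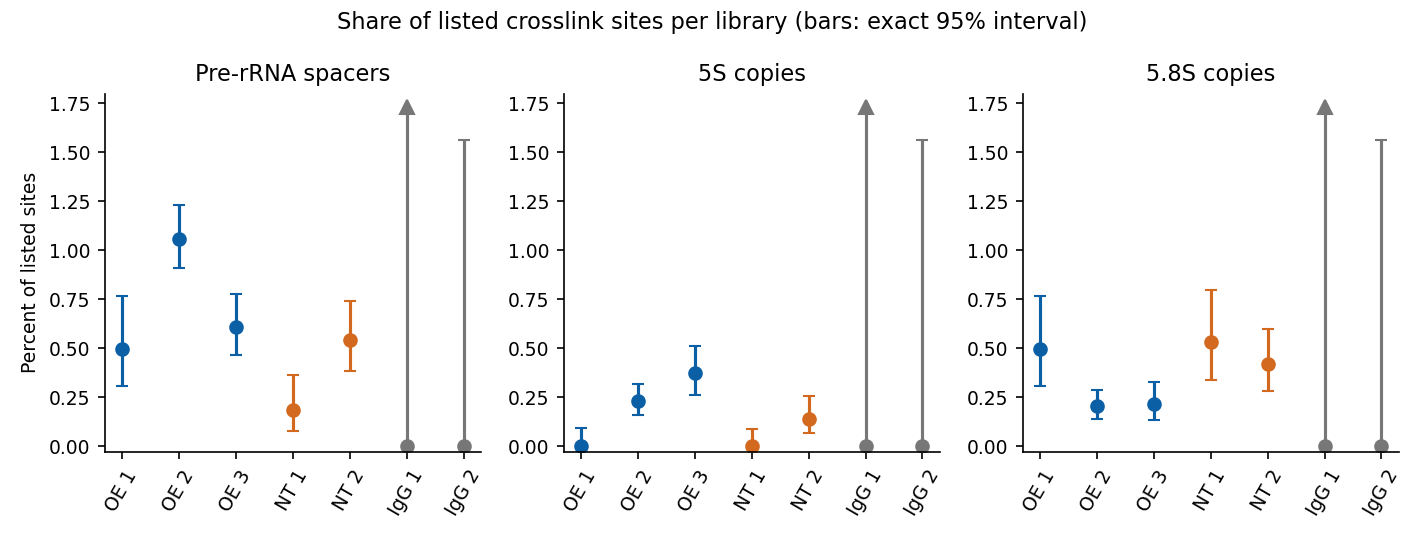
Percent of listed sites in the spacers, in 5S copies and in 5.8S copies for each library (OE, DENR overexpressing; NT, non-transfected), as points with exact 95% intervals; an arrowhead marks an interval that runs past the axis. Spacers and 5.8S copies have sites in all 5 DENR libraries, 5S copies in 3 of them, and the IgG intervals reach above the DENR points.

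Spacer sites were sparse and weak beside those of the mature 18S rRNA in the same lists. The lists do not give how much of each RNA was present, so neither density nor score measures a preference of DENR. The spacers held 0.504, 4.31 and 1.56 sites per 100 nt in DENR overexpressing and 0.202 and 0.983 in non-transfected libraries. On 18S (39846353 to 39848201) the corresponding densities were 22.5, 41.9, 34.1, 19.2 and 40.7 sites per 100 nt. The 18S density was thus 9.72 to 95.2 times the spacer density, and lower in the spacers in 5 of 5 libraries (mean log2 ratio -5.03 ± 1.23, SD, n = 5; two-sided exact sign-flip permutation test, p = 0.0625, the smallest possible, adjusted p = 0.133). Merging sites within 15 nt reduced the log2 ratio to -1.40, again negative in all 5 (exact p = 0.0625).

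Single spacer sites also had low scores. The median score was 1 to 1.5 in the spacers and 3 to 17 on 18S, and the highest spacer score was 28, in DENR overexpressing replicate 2. The mean score per site was lower in the spacers than on 18S in 5 of 5 libraries, by a log2 ratio of -3.71 ± 0.934 (SD, n = 5; two-sided exact sign-flip permutation test, p = 0.0625, not adjusted, a comparison chosen after the values were seen). Of the spacer sites, 16 of 20, 105 of 171, 31 of 62, 4 of 8 and 30 of 39 had a score of 1 in the 3 DENR overexpressing and 2 non-transfected libraries, in that order. Of the summed score of a DENR list, the spacers held 0.0746 to 0.224%.

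**Figure D2:**
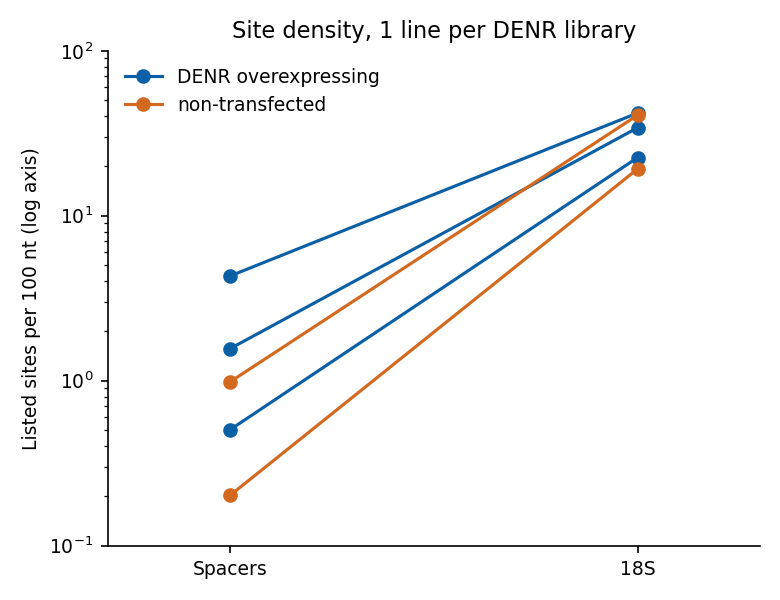
Listed sites per 100 nt in the spacers and on the 18S copy, with 1 line per DENR library on a log axis. Every line rises from the spacers, which lie between 0.202 and 4.31, to 18S, which lies between 19.2 and 41.9 sites per 100 nt.

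All 300 sites were in the 5′ flank and none of the 7 lists had a site in the 626 nt of the 3′ flank, where the annotation has Gm42418 on the plus and the rRNA gene CT010467.1 on the minus strand. The 5′ flank had 1.8 ± 1.96 sites per 100 nt more than the 3′ flank (SD, n = 5). Because the 3′ flank was at 0 in every list, each difference had to be above 0, and the planned test (two-sided exact sign-flip permutation p = 0.0625, adjusted p = 0.133) carries no evidence. A count of 0 in the 3′ flank allows at most 0.0186 to 0.0748% of the sites of a DENR list. Without DENR overexpressing replicate 2 the difference was 0.966 sites per 100 nt. The base composition of the flanks was alike, with 69.1% G and C in the 5′ flank and 71.2% in the 3′ flank.

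Within the 5′ flank the sites lay far from 18S. Of the 300 sites, 269 (89.7%) were 2001 to 3340 nt upstream of it, in the 3 outermost windows of 500 nt. The last window is cut short by the outer edge of the selected flank. Sites reached 3338 nt upstream, next to this edge, and the sequence beyond it was not examined. Counting outwards from 18S, the 7 windows held 23, 0, 2, 6, 90, 108 and 71 sites over the 5 DENR lists. The 3 outer windows had sites in each of the 5 libraries. The window from 1501 to 2000 nt had sites in 3 libraries and that from 1001 to 1500 nt in 1.

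The 23 sites next to 18S came from 1 library. DENR overexpressing replicate 2 listed them 202 to 307 nt upstream, with scores of at most 7 and a summed score of 46. No other list had a site there, and a gap of 982 nt without any site in any list (307 to 1289 nt upstream) separated them from the rest. Without this window the difference between DENR overexpressing and non-transfected libraries was 0.310 percentage points. No site was within 15 nt of either end of 18S.

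**Figure D3:**
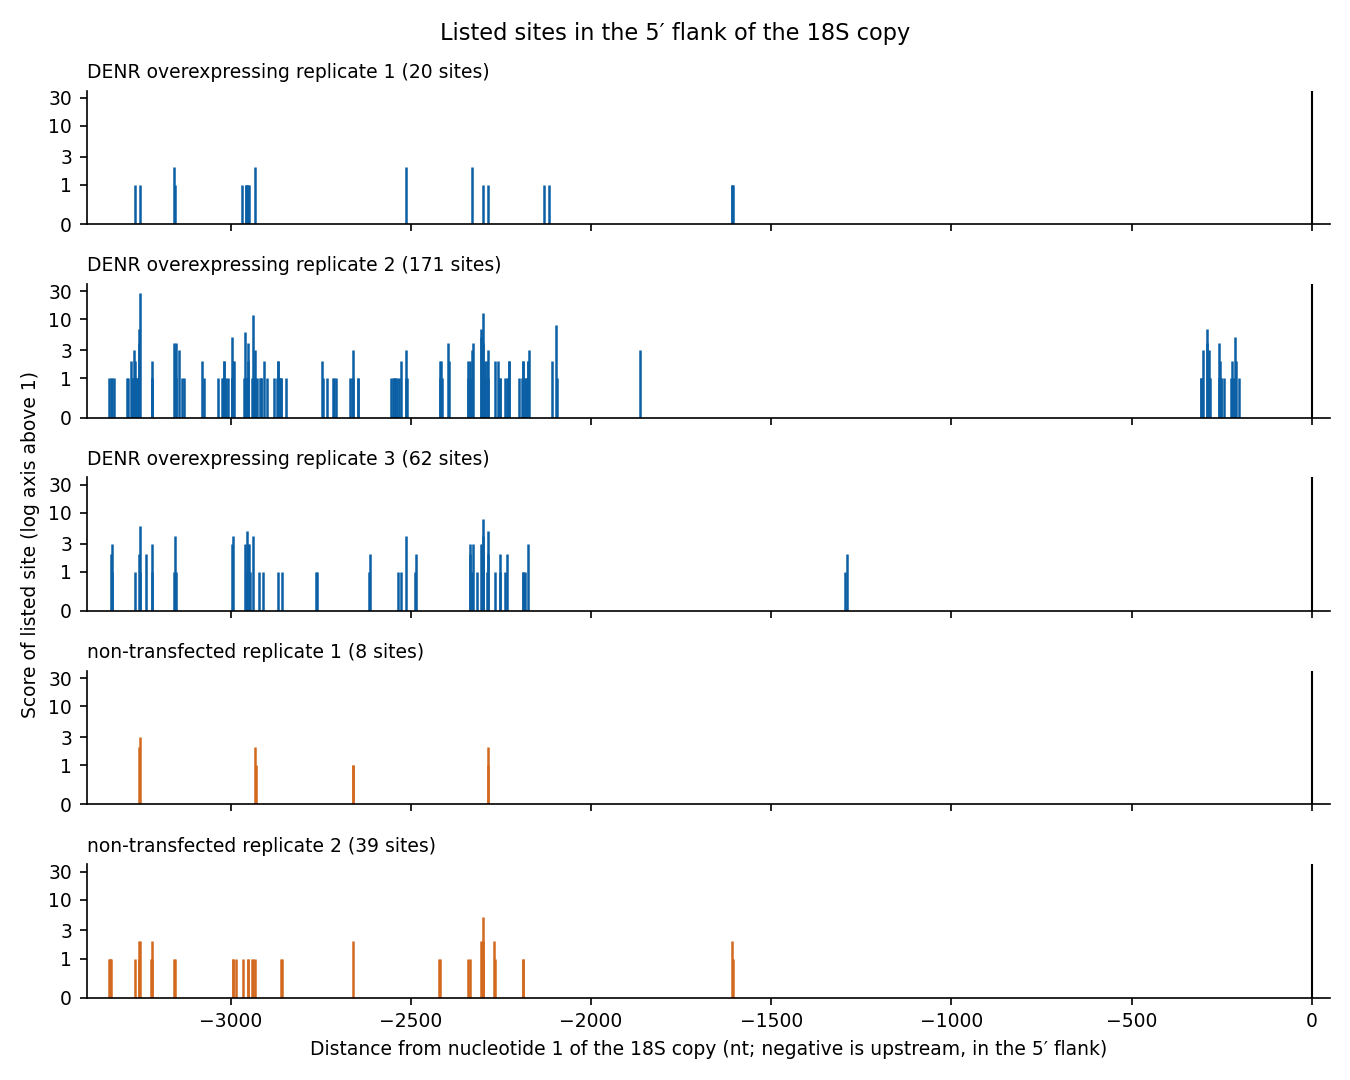
Score of each listed site in the 5′ flank (log axis above 1) against its distance from nucleotide 1 of the 18S copy, with 1 panel per DENR library. Most sites lie 2001 to 3340 nt upstream in all 5 panels, and the 23 sites nearest to 18S appear in DENR overexpressing replicate 2 only.

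Of the spacer positions, 52 were listed in 2 or more DENR libraries. Of 216 positions, 164 (75.9%) were listed in 1 DENR library, 28 in 2, 17 in 3, 6 in 4 and 1 in all 5. On 18S, 148 of 878 positions (16.9%) were listed in 1 library and 253 in all 5. From the side of each list, 75.0%, 28.1% and 62.9% of the spacer sites of the DENR overexpressing and 75.0% and 71.8% of those of the non-transfected libraries were also listed in another DENR library, against 90.7 to 100% of the 18S sites. The lowest share was that of DENR overexpressing replicate 2, the longest list, with 48 of 171 spacer sites in another list. These shares were not tested, because the lists share positions. Listed sites were also far denser on 18S, at 19.2 to 41.9 per 100 nt against 0.202 to 4.31 in the spacers. Density alone makes more 18S positions coincide. The overlap expected from density was not computed, so these shares do not compare the reproducibility of the 2 regions.

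The position found in all 5 libraries was 3253 nt upstream of 18S (39843100), with scores of 1, 28 and 6 in DENR overexpressing and 3 and 2 in non-transfected libraries. It took on average 0.00993% of the listed score. The nucleotide next to it, 3254 nt upstream, had scores of 7 and 2 in DENR overexpressing replicates 2 and 3 and of 2 and 1 in the non-transfected libraries. The position 2300 nt upstream (39844053) had scores of 1, 13 and 8 in DENR overexpressing libraries and 5 in non-transfected replicate 2. At 2287 nt upstream the scores were 1, 3, 5 and 2, without a site in non-transfected replicate 2, and at 3156 nt upstream they were 1, 2, 4 and 1, without a site in non-transfected replicate 1. DENR overexpressing replicate 2 was the highest library at 3 of these 5 positions.

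Sites that did not coincide were also grouped by distance, which was not tested against random placement. The caller used a flank of 15 nt, so closeness at this distance is not independent of how sites were called. Joining spacer positions of any list within 15 nt gave 25 clusters with a median span of 22 nt. Of these, 3 had sites in all 5 DENR libraries, 1 in 4, 7 in 3, 4 in 2 and 10 in 1 library. The 3 shared clusters lay 3252 to 3288, 2900 to 2969 and 2227 to 2343 nt upstream of 18S. The last was the longest, with 37 positions over 117 nt and summed scores of 4, 67 and 43 in DENR overexpressing and 3 and 15 in non-transfected libraries. The cluster around the position 3253 nt upstream had summed scores of 2, 55 and 10 against 5 and 6, and the middle one 8, 44 and 26 against 3 and 6.

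The base at the crosslink site is a feature that the choice of sites did not use. Uridine was the listed base at 45.0%, 37.4% and 41.9% of the spacer sites in DENR overexpressing and at 37.5% and 51.3% in non-transfected libraries, whereas 22.5% of the spacer sequence is uridine. The excess was 20.1 ± 5.8 percentage points (SD, n = 5), above 0 in 5 of 5 libraries (two-sided exact sign-flip permutation test, p = 0.0625, adjusted p = 0.133). It was 18.7 points against the sequence of the windows that hold the sites. Restricted to scores of at least 2, it fell to 3.85 points and no longer had 1 sign in all libraries (exact p = 0.562). Guanosine, 35.6% of the spacer sequence, was the listed base at 18.2% ± 10.9 of the sites (SD, n = 5). For adenosine the values were 8.02% of the sequence and 2.02% ± 2.77 of the sites, and for cytidine 33.9% and 37.2% ± 15.0. These 3 bases were not tested.

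The excess of uridine extended to neighbouring nucleotides. It was 16.8 ± 3.76 points at the nucleotide before and 24.2 ± 16.7 points at the nucleotide after the site (SD, n = 5). At 2 nt before and 2 nt after the site it was 6.57 ± 7.04 and 3.09 ± 15.5 points, without a common sign at either. Further upstream it was 5.65 ± 2.28 points at 3 nt and 11.9 ± 9.75 points at 5 nt before the site, above 0 in 5 of 5 libraries at both. At 4 nt before the site it was 3.35 ± 5.43 points, without a common sign. At 3, 4 and 5 nt after the site it was 2.37, 3.36 and -5.97 points, again without a common sign. On 18S the excess over the 18S sequence (21.9% uridine) was 3.07 ± 1.40 points. The spacer excess was larger by 17 points, in 5 of 5 libraries (two-sided exact sign-flip permutation test, p = 0.0625, not adjusted, chosen after the values were seen). The motif TTTT on the RNA strand lay within 5 nt of 0 to 25.0% of the sites per library, against 2.93% of spacer nucleotides and 2.19% of those in the 5′ flank, where all the sites lay. The library with most sites, DENR overexpressing replicate 2, was at 2.92% (5 of 171 sites). The motif CTTT, which overlaps it, lay within 5 nt of 6.45 to 25.0% of the sites, against 4.96% of spacer and 4.21% of 5′ flank nucleotides. Neither motif was tested.

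The 5.8S copies were the other locus with sites in every DENR library. Nearly all were in n-R5-8s1 (chromosome 18, 73533403 to 73533550, minus strand, 148 nt), the annotated 5.8S gene. It held 20, 25 and 22 sites in DENR overexpressing and 23 and 25 in non-transfected libraries, all on the strand of the gene. The number of sites stayed within 20 to 25 although the lists held between 4012 and 16137 sites. The summed scores were 93, 536 and 384 in DENR overexpressing and 86 and 359 in non-transfected libraries. This was 0.380%, 0.344% and 0.410% of the listed score in DENR overexpressing and 0.523% and 0.525% in non-transfected libraries, above the share of the whole 5′ flank in each library. The IgG controls listed no site in this gene, which again allows up to 15.8% and 1.28%. As 5.8S rRNA is cut from the pre-rRNA transcript, reads from other copies of the same sequence cannot be told apart from those of this gene.

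The sites of n-R5-8s1 lay mainly in 2 stretches. Nucleotides were counted from the 5′ end of the gene. Of 38 positions, 12 were listed in all 5 libraries and 5 in 4. A first stretch, nucleotides 52 to 62, held 24.7%, 25.2% and 30.7% of the score of the gene in DENR overexpressing and 14.0% and 21.4% in non-transfected libraries. A second stretch, nucleotides 64 to 84, held 75.3%, 74.8% and 69.3%, and 50.0% and 78.6%. The highest position was nucleotide 66, 67 or 68 in each library. Nucleotide 66 had scores of 12, 66 and 39 in DENR overexpressing and 12 and 65 in non-transfected libraries. Nucleotide 67 had scores of 16, 75 and 50 against 11 and 49, and nucleotide 68 had 16, 52 and 53 against 3 and 26. In the first stretch, nucleotides 55 and 56 led, with scores of 5, 33 and 40 against 6 and 24, and of 6, 41 and 26 against 2 and 27.

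Non-transfected replicate 1 differed from the other libraries at this gene. It alone had sites at nucleotides 12 to 20, with a summed score of 31, or 36.0% of its score in the gene. The share of the listed score in 5.8S copies was 0.380%, 0.356% and 0.410% in DENR overexpressing and 0.523% and 0.550% in non-transfected libraries. The groups did not overlap, with a difference of -0.155 percentage points (exact permutation p = 0.2, two-sided, the lower limit of the test, unadjusted, chosen after the values were seen). Without the sites at nucleotides 12 to 20, non-transfected replicate 1 was at 0.335%, the groups overlapped, and the difference was -0.0604 percentage points (exact p = 0.8).

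**Figure D4:**
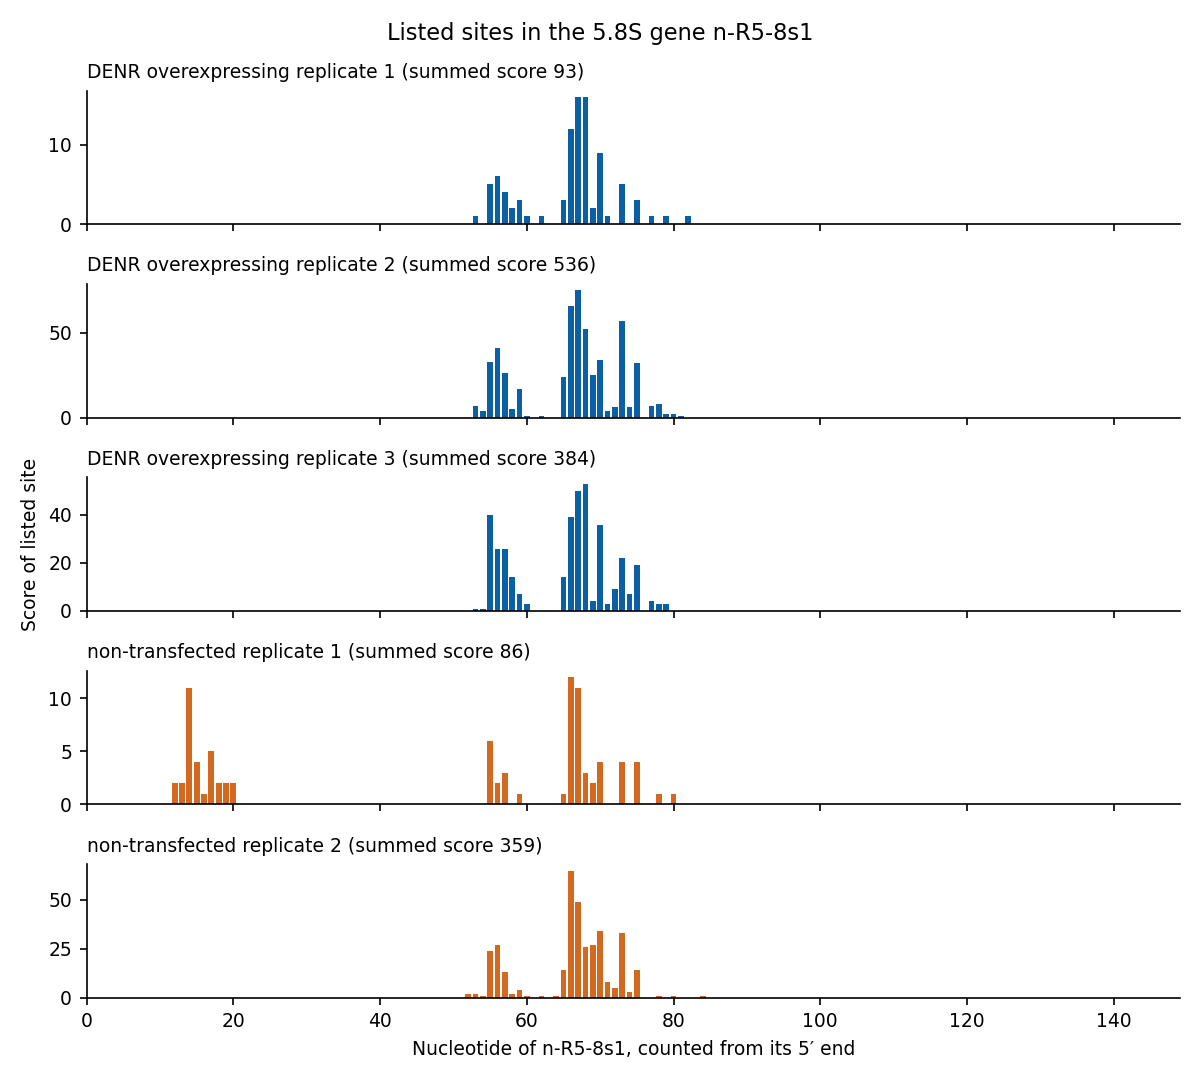
Score of each listed site along the 5.8S gene n-R5-8s1, with 1 panel per DENR library and the nucleotide counted from the 5′ end on the horizontal axis. Each panel has stretches at nucleotides 52 to 62 and 64 to 84 with its highest site at nucleotide 66, 67 or 68, and non-transfected replicate 1 has a further stretch at nucleotides 12 to 20.

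The other 5.8S copy, Gm24601 (chromosome 6, 94826781 to 94826923, minus strand, 72.3% identical to n-R5-8s1), had 8 sites (summed score 18) in the second DENR overexpressing library and 5 (summed score 17) in the second non-transfected one, and none elsewhere. Its sites lay at nucleotides 35 to 47 and so fell outside the stretches of n-R5-8s1. They are shown in capitals. A different place of crosslinking and a difference in where reads can be assigned to this copy cannot be told apart here.
Gm24601, nucleotides 29 to 58 (chr6:94826866-94826895, minus strand): gcatccAcaGCAAGctGcGagaattaatat

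The 5S copies had sites in the 3 longest lists only. DENR overexpressing replicates 2 and 3 listed 37 and 38 sites and non-transfected replicate 2 listed 10, or 0.229%, 0.372% and 0.139% of their sites. DENR overexpressing replicate 1 and non-transfected replicate 1, the 2 shortest DENR lists, listed none, which allows up to 0.0748% and 0.0694%. These limits are below the share in each of the other DENR lists, but they treat sites as independent. Sites of 1 copy came in runs, with 10 in n-R5s71 in DENR overexpressing replicate 2, so a deficit in the 2 shortest lists is not shown. All 85 sites were on the strand of the gene. The 5S share was 0.201% ± 0.188 in DENR overexpressing (SD, n = 3) and 0.0696% ± 0.0984 in non-transfected libraries (SD, n = 2), a difference of 0.131 percentage points, less than the SD of the overexpressing libraries (p = 0.6, two-sided, exact permutation test, unadjusted).

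For 5S and 5.8S copies together the DENR overexpressing share was 0.507% ± 0.0773 (SD, n = 3) and the non-transfected share 0.544% ± 0.0175 (SD, n = 2), a difference of -0.0376 percentage points that was not detectable (two-sided exact permutation test, p = 0.6, adjusted p = 0.6). Leaving out DENR overexpressing replicate 2 gave -0.00120 and leaving out replicate 3 gave -0.0782. Against IgG the difference was 0.522 percentage points, again at the lower limit of the test (p = 0.0952, adjusted p = 0.133, two-sided, exact permutation) and below what the IgG lists could show.

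Sites were listed in 9 of the 351 5S copies. None of the 32 genes identical to Rn5s was among them, and each of the 9 had a sequence found in no other gene of type rRNA. This also held for most of the 351 copies, of which only 56 shared their sequence with another gene. With 9 copies listed, nothing is read from either count. The 9 copies were 72.3 to 99.2% identical to Rn5s. Reads from genes of the same sequence cannot be told apart, and how they were placed is not given in the sources used here, so these values are not the amount of 5S rRNA crosslinked.

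Stretches of 4 copies that have the 119-nt length of Rn5s are printed against it, with every nucleotide that has a listed site in capitals. The first set shows copies crosslinked in the middle of the gene.
Rn5s, nucleotides 26 to 55 (chr8:123598222-123598251, minus strand): cgcccgatctcgtctgatctcggaagctaa
n-R5s210, nucleotides 26 to 55 (chr1:37005464-37005493, plus strand): tgcctgatctCaTCTGatCtcggaagctaa
n-R5s151, nucleotides 26 to 55 (chr7:16471838-16471867, plus strand): tgcccgatCTtgTctGaTCtcggaagctAA
The second set shows copies crosslinked further towards the 3′ end.
Rn5s, nucleotides 66 to 95 (chr8:123598182-123598211, minus strand): gcctggttagtacttggatgggagaccgcc
n-R5s71, nucleotides 66 to 95 (chr11:74319857-74319886, plus strand): gCctgGttaGTaCttgGATgGGaGactgcc
n-R5s5, nucleotides 66 to 95 (chrX:18323468-18323497, minus strand): gcctggttagtgcttaGATGGGagaccgcc

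The 2 copies on chromosome 8 carried the highest 5S scores, at nucleotide 10 in both. In n-R5s136 this nucleotide had scores of 2 and 20 in DENR overexpressing replicates 2 and 3 and 25 in non-transfected replicate 2. In n-R5s115 its score was 22 in the third DENR overexpressing library and 23 in the second non-transfected one. Both copies are nearly identical to Rn5s. Counting from 1 at the 5′ end, n-R5s136 differs from it by T33C alone, and n-R5s115 by C3A and G86A. These were the only 5S copies with sites in non-transfected replicate 2, whose 10 sites had a summed score of 59.

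The other 5S copies were listed in DENR overexpressing libraries only, which was not tested against the shorter non-transfected lists. n-R5s71 (chromosome 11) had 10 and 7 sites in replicates 2 and 3, between nucleotides 67 and 89, with a highest score of 6. n-R5s210 (chromosome 1) had 3 and 5 sites and n-R5s151 (chromosome 7) 3 and 5 sites, and in both the highest score, 10 and 6, was at nucleotide 44 in replicate 3. n-R5s65 (chromosome 12, 7 and 4 sites) and n-R5s156 (chromosome 7, 6 and 4 sites) had their highest scores, 3 and 4, at nucleotides 42 and 28. n-R5s5 (chromosome X) had 3 and 4 sites at nucleotides 82 to 87, and Gm26197 (chromosome 14) 3 sites in replicate 2.

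In the 6 copies with the length of Rn5s each of the 46 listed positions had a base that differs from Rn5s downstream of it, in the direction in which the cDNA extends from the crosslink. The median distance to the nearest such base was 10 nt in n-R5s71, 20.5 nt in n-R5s5, 23.5 nt in n-R5s136, 29.5 nt in n-R5s210 and 32 nt in n-R5s151, and the longest was 43 nt. In n-R5s115 it was 74 nt, with a range of 64 to 78 nt. With differing bases as far as nucleotide 110 in n-R5s210, nearly any position of such a copy has one downstream. Some are shared between copies, such as G99A in n-R5s151 and n-R5s210, so the distances are to a base that differs from Rn5s only. A read can be told from Rn5s by sequence only if it reaches such a base. The place of crosslinking and the place where copies are distinguishable therefore cannot be told apart here.

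**Figure D5:**
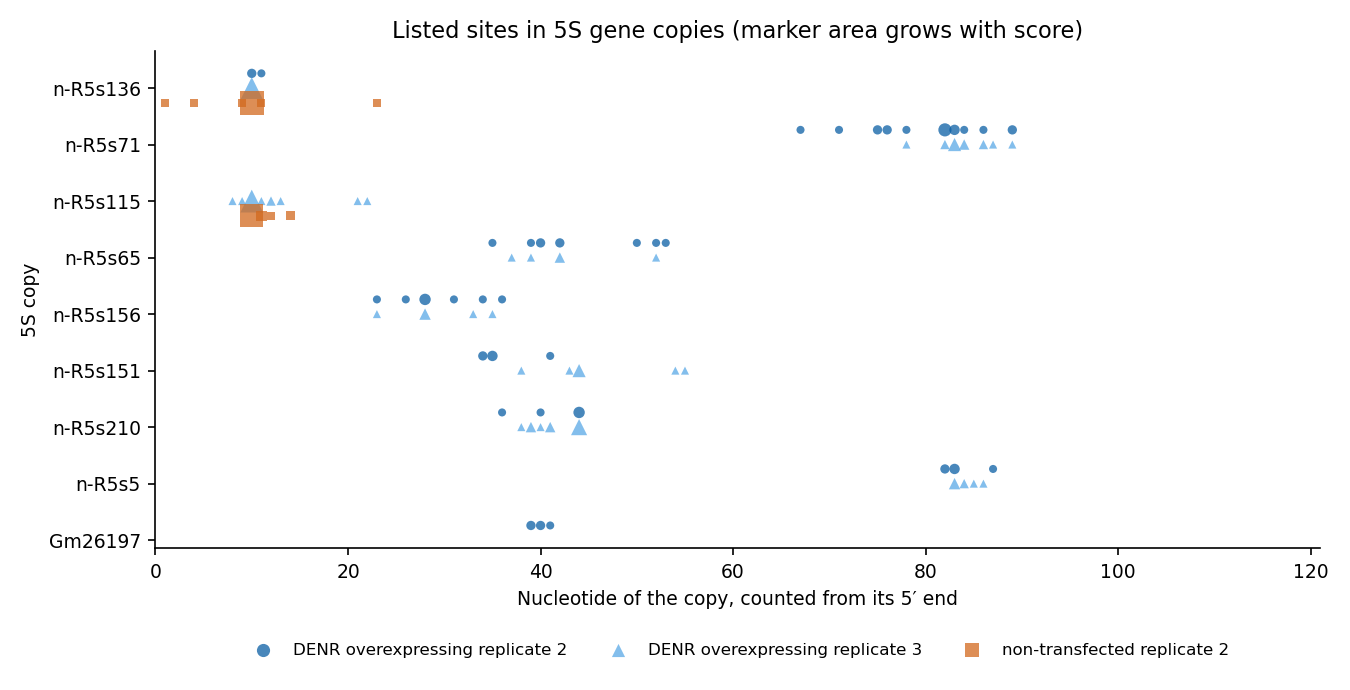
Listed sites along each of the 9 5S copies with a site, by nucleotide from the 5′ end of the copy, with the marker for the library and its area growing with the score. Sites of n-R5s136 and n-R5s115 lie between nucleotides 1 and 23, those of n-R5s71 and n-R5s5 between 67 and 89, and non-transfected replicate 2 appears in the former pair only.

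RNAs and genes that act on these rRNAs were then looked up. Of 13 small RNAs of pre-rRNA processing, 4 had a site on their strand in a DENR library and none in an IgG library. Of all 1483 annotated snoRNA genes, 1.55% had such a site in a DENR library, a background that includes predicted copies and was not matched for expression, so that nothing is read from the difference. The 5 annotated genes of U3, which base-pairs with the 5′ external transcribed spacer, had no site in any list. How reads that match several of these genes equally well were placed is not given, so this does not show that U3 was not crosslinked. Snord118 (U8, needed for 5.8S and 28S) had 6 sites in DENR overexpressing replicate 2, and Snord13 had 6 sites each in that library and in non-transfected replicate 2. Snord22 had 6 sites in DENR overexpressing replicate 3, and Rmrp, the RNA of RNase MRP, which cuts in the internal spacer, had 8 and 7 sites in DENR overexpressing replicates 2 and 3. Summed scores were 13 to 18 per gene and library.

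Of 8 protein-coding genes of the 5S particle and of 5S transcription, 3 had an exonic site in a DENR library and none in an IgG library. Among all 21924 protein-coding genes, again without matching for expression, the share was 7.91%, and the difference was not tested. Rpl5, whose protein binds 5S rRNA, had 2 sites in DENR overexpressing replicate 2. Gtf3c1, a subunit of transcription factor IIIC, had 1 site each in DENR overexpressing replicate 2 and non-transfected replicate 1, and Gtf3c2 had 1 in DENR overexpressing replicate 2. The scores summed to 2 or 3. No site was listed in exons of Rpl11, Rrs1, Gtf3a, Polr3a or Polr3b.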

How the data were processed

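Lists of crosslink sites from 7 iCLIP libraries were used. The authors mapped reads to mm10 with Bowtie (Bowtie2 in the labels), allowing 2 mismatches, removed reads that shared a molecular identifier and start, and called sites in each library with iCount peaks (100 permutations, flank of 15 nt, false discovery rate of 0.05). In the deposited lists each site has a score, its height, whose sign gives the strand, and there is no depth. Track lines name the option of separate regions and the methods that of regions as one. How reads with several best matches were treated is not given in the sources used here.

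Groups were taken from sample titles. Positions were converted to 1-based coordinates, the flanks were fixed by the selection of loci, and rRNA genes and sequences came from GENCODE M21, which uses the same build. Of 3966 flank nucleotides, 3955 had a sequence. Copies were classed by edit distance (edlib 1.3.9.post1) to Rn5s and n-R5-8s1. Percentages of listed sites were compared by exact permutation tests, paired values within libraries by exact sign-flip permutation tests, with Benjamini-Hochberg adjustment over 7 tests. The density of the flanks was planned as a log2 ratio but compared as a difference, because the 3′ flank was at 0. No design could reach 0.05. The 5 positions of the 5′ flank in most DENR libraries were named, ties being resolved by mean rank of their scores, and so were the 10 rRNA genes in most libraries. Gm26197, the last of 11, was added after its values were seen. A count of 0 was given the limit of 3 counts. Functions recovered 7 of 7 known answers on simulated data. Alternatives were a minimum score of 2 or 10, weighting by score, merging within 15 nt, other denominators and leaving out each library. Loci, lists and tests were chosen with earlier results of these data known. The 5′ end sequences of 5S copies are not reported here. Software was scipy 1.17.1, pandas 2.3.3 and numpy 2.4.6 under Python 3.11.15.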

Additional observations from a re-analysis of the deposited data

Results flagged for a closer look

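Signal was present just outside a 5S copy that had no site within it. Next to n-R5s193 (chromosome 4), 3 sites were listed within 20 nt of the gene, all ahead of its 5′ end and on its strand. DENR overexpressing replicate 2 had a score of 3 and non-transfected replicate 2 a score of 9 at 149817730, 2 nt before the gene, and non-transfected replicate 2 had a score of 1 at 149817729. The IgG lists had 0 sites within 20 nt of it.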

How the results depend on the processing

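Of 126 alternative values, 1 reversed and 6 counts moved by more than 1.5 times, for causes not tested. The other 119 kept their sign or, for counts, stayed within 1.5 times, which says nothing of their size: the excess of uridine fell from 20.1 to 3.85 points with a minimum score of 2 and lost its common sign (exact p = 0.562). The alternatives that separated 5S from 5.8S copies, left out the 500 nt next to 18S, changed the background of uridine or used another denominator on chromosome 17 were chosen after seeing the data. The rRNA gene share (DENR overexpressing minus non-transfected) was 0.131 percentage points for 5S copies only, against -0.0376 for all. Since no p could reach 0.05, the tests say nothing about stability.

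Over fits that each left out 1 library, the values ranged from 0.458 to 0.677 (spacer share against IgG), 0.179 to 0.537 (spacer share between DENR groups), 0.505 to 0.544 (rRNA genes against IgG), -0.0782 to -0.00120 (rRNA genes between DENR groups), -5.47 to -4.64 (log2 density against 18S), 0.966 to 2.19 (density between flanks) and 17.9 to 21.4 (uridine). The number of spacer positions in all libraries, 1, was 2 within 5 nt and 0 with a minimum score of 2, and 1 to 5 over the fits that required 4 lists. For rRNA genes the number was 12, and 20 within 5 nt. A minimum score of 10 left too few spacer sites for a density ratio.

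Groups share the replicate numbers 1 and 2, with no label tying a number to a day or batch. Deviations from group means over 59 bins of 100 nt of the chromosome 17 copy correlated by 0.250 and 0.192 for the overexpressing and non-transfected libraries of equal number, and 2 pairs do not show a pairing. With the replicate block (exact sign-flip, smallest p 0.5) the differences were 0.571 and 0.415 for spacers, 0.505 and -0.0782 for rRNA genes and -0.169 for the 5.8S score share.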
